A study of Mus musculus with 2 samples.

Results

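Azurophil granules are the primary granules of neutrophils, and they are filled in the bone marrow at the promyelocyte stage, before the specific granules appear. Their best known contents are the serine proteases neutrophil elastase, proteinase 3 and cathepsin G, and myeloperoxidase, the haem enzyme that makes hypochlorous acid. The transcripts of these proteins are made early and fade as the cell matures, while the proteins stay stored in the granules of the mature cell, and monocytes inherit a smaller store from progenitors of the same kind. The genes described here are 6 of the 27998 genes in both count tables, chosen by symbol: Elane (neutrophil elastase), Mpo (myeloperoxidase), Prtn3 (proteinase 3), Ctsg (cathepsin G), Prss57 (neutrophil serine protease 4) and Nkg7, a small membrane protein of cytotoxic granules in lymphocytes. All 6 had UMIs (unique molecular identifiers, each counting 1 captured transcript) in both libraries. Nkg7 is the member whose known site is the cytotoxic lymphocyte, and it is described with the rest because its symbol is in the list.

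The data were single-cell RNA counts of F4/80+CD11b+ cells sorted from the alveolar bone around the left maxillary first molar of 8-week-old male C57/B6 J mice. The control library came from mice to which no force was applied, and the OTM (orthodontic tooth movement) library from mice whose left first molar had been pulled forward by a NiTi coil spring at about 30 g for 7 days. The study used 20 mice over both groups, and how many were pooled into each library is not given in the sources used here. There was 1 library per condition, so no difference between control and OTM has a replicate check, and no p-value is given. Intervals in parentheses after a level, a share or a ratio are exact 95% intervals and cover counting error only.

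After keeping barcodes with at least 200 genes and at most 5% mitochondrial UMIs, 2835 of 2863 barcodes remained in the control library, with 14493851 UMIs and a median of 3998 per cell, and 2052 of 2058 in the OTM library, with 16472699 UMIs and a median of 6861.5. The libraries shared 6 barcode sequences. The cells are labelled macrophages, yet Adgre1, which encodes F4/80, was found in 19.96% of control and 26.9% of OTM cells. S100a8, a gene of neutrophils and inflammatory monocytes, was found in 99.89% and 99.95%. This share does not tell cell types apart, since S100a8 was also found in 100% of control cells with B cell or with T or NK cell markers. Its level there was 3531 and 1887 CPM (UMIs per 1000000 UMIs), against 215212 CPM in the larger control cluster of mature neutrophil-like cells. Whether the low levels came from RNA of other cells was not tested. The cells were called by their marker genes, with the 6 members left out of the clustering. The libraries held neutrophil-like cells of several stages and monocyte-like cells beside a C1q and MHC class II cluster of 242 control and 40 OTM cells, which is nearest to the label. Levels are given as a gene's UMIs per 1000000 UMIs of the class (CPM), and since each transcript is counted once from its 3′ end they are not divided by length.

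In the whole libraries Elane was the most abundant member and Prss57 the least. Elane stood at 1010 CPM in control and 855 CPM in OTM, Prtn3 at 436 and 403, Mpo at 262 and 255, Ctsg at 205 and 125, Nkg7 at 145 and 77.0, and Prss57 at 25.7 and 19.5. The order of the 6 was the same in both libraries. These totals came from few cells: the granulocyte progenitor-like cells made up 1.55% (1.13 to 2.08) of control cells and 1.07% (0.67 to 1.62) of OTM cells, and they held 69.6% of the members' UMIs in control and 54.1% in OTM.

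The progenitor-like cells were 44 control and 22 OTM cells of a mixed cluster of 120, taken by at least 3 UMIs of Ms4a3, a membrane gene of granulocyte and monocyte progenitors, and by more progenitor than lymphoid or erythroid marker UMIs. This split was chosen after the values were seen. Of the 120 cells, 49 had no Ms4a3 UMI, 63 had 5 or more, and 8 lay between. In the progenitor-like cells the 6 members together took a median of 3.47% of a cell's UMIs in control (range 0.327 to 6.61) and 4.61% in OTM (2.42 to 7.02), so that the lowest OTM cell lay below the control median and the ranges overlapped. Elane alone reached 15887 CPM in control and 23229 in OTM. Prtn3 was at 6043 and 6094 CPM, Mpo at 4446 and 8194, Ctsg at 3580 and 3907, Nkg7 at 1846 and 1726, and Prss57 at 289 and 355. Elane, Mpo, Prtn3 and Ctsg had a UMI in every one of the 44 and 22 cells, Nkg7 in 42 and 22, and Prss57 in 37 and 19. All 6 were found together in 56 of the 66 cells, and all but 2 cells had at least 5 of them. Across the 66 cells of both libraries, the ranks of the members' levels were related with Spearman's rho from 0.29 (Mpo and Nkg7) to 0.68 (Elane and Nkg7). Within control alone rho ran from 0.30 (Mpo and Ctsg) to 0.83 (Elane and Nkg7). Within OTM it ran from -0.085 (Prtn3 and Prss57) to 0.59 (Elane and Mpo). These values describe cells, which are not replicates, and carry no test.

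**Figure D1:**
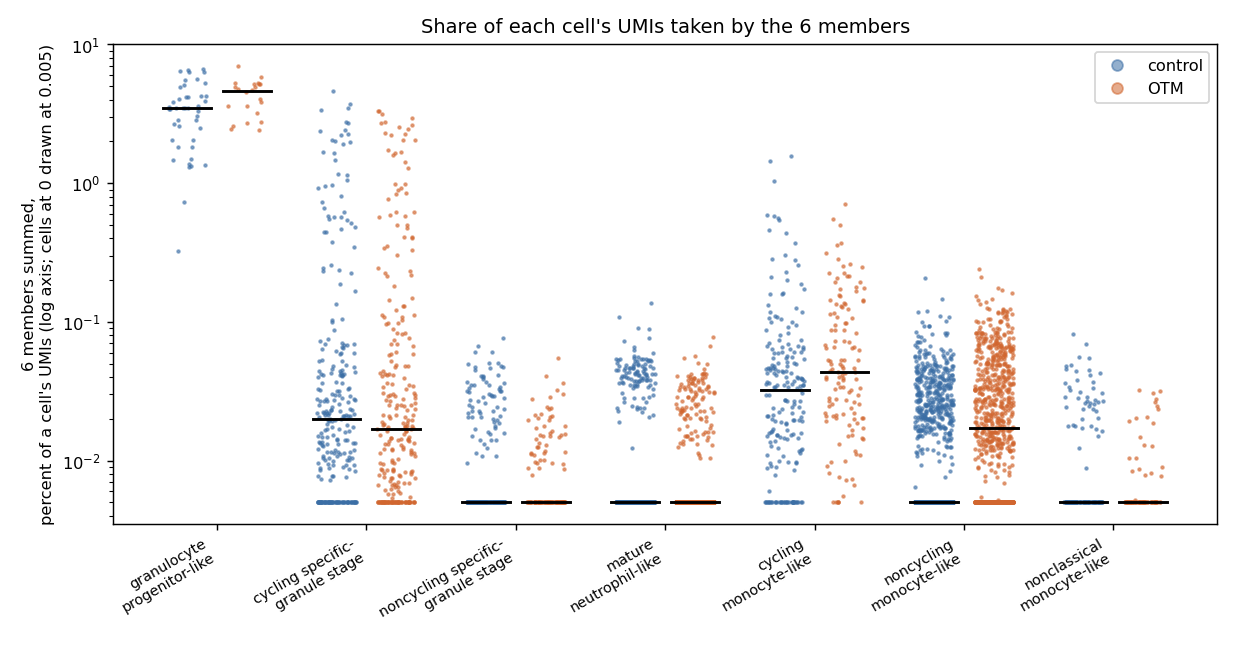
Percent of each cell's UMIs taken by the 6 members summed (log axis, cells at 0 drawn at 0.005), by class and library; each point is 1 cell and each bar is the class median. The progenitor-like cells sit at medians of 3.47% and 4.61%, while the cycling specific-granule stage spreads from 0 to 4.66% in control and 3.34% in OTM.

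Among the progenitor-like cells, those with a UMI of Fcnb held more of the members in control, a split chosen after the values were seen. Fcnb encodes ficolin B and comes on as granulocyte progenitors commit to the neutrophil line. A UMI of Fcnb was found in 27 of 44 control cells, and in these Elane was at 22677 CPM against 7656 CPM in the 17 cells without it, a ratio of 2.96 (2.83 to 3.10). The same ratio was 3.17 (2.22 to 4.64) for Prss57, 2.70 (2.36 to 3.09) for Nkg7, 2.09 (1.95 to 2.25) for Prtn3, 1.61 (1.48 to 1.76) for Ctsg and 1.53 (1.42 to 1.65) for Mpo. Mpo and Ctsg thus differed least between the cells without and with Fcnb in control. In OTM only 2 of the 22 cells had no Fcnb UMI, too few to describe, and the cells without Fcnb were no shallower in control (median 16925 UMIs against 13105).

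For 5 of the 6 members the RefSeq promoter table held a window, and 4 of them are shown here because the same motif fell in each of these genes, which were high in the same cells. Elane and Prtn3 lie side by side on chromosome 10 of the GRCm38.p6 assembly, with Prss57, which has no entry in the promoter table, nearby on the same chromosome. In that assembly Elane spans bases 79886312 to 79888216, Prtn3 79879667 to 79883174 and Prss57 79781474 to 79794684. Mpo lies on chromosome 11 (87793784 to 87804412), Ctsg on chromosome 14 (56099885 to 56102574) and Nkg7 on chromosome 7 (43437138 to 43438246). The windows are 100 bases of the same assembly, read 5′ to 3′ on the gene's own strand, at chr10:79886212-79886311 (+) for Elane and chr10:79879567-79879666 (+) for Prtn3, which end at the base before the transcription start, and at chr11:87793534-87793633 (+) for Mpo and chr14:56102725-56102824 (-) for Ctsg, which run from 250 to 151 bases before it. Capitals mark the ETS-type motif AGGAAGT, the kind of site that PU.1 and its relatives bind, and in Elane and Prtn3 also the Myb-type motif AACGG.
Elane: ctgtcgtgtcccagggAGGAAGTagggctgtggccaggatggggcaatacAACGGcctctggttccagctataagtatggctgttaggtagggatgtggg
Prtn3: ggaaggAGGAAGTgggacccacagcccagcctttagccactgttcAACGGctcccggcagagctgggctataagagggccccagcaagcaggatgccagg
Mpo: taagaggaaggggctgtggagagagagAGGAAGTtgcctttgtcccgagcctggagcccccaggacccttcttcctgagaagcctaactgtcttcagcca
Ctsg: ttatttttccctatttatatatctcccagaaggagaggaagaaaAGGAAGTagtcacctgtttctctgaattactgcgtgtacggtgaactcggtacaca

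The 250 bases before each start were searched on both strands for 4 motifs that do not overlap each other in these windows. AGGAAGT was in 4 of the 5 members' windows and in 7.69% of all 32851 promoters of that length. AACGG was in 2 of 5 against 14.5% of all, TATAA in 3 of 5 against 22.8%, and the C/EBP-type motif TTNNGNAA in 0 of 5 against 36.8%. In Elane the ETS-type motif lay 84 to 78 bases, the Myb-type motif 50 to 46 bases and TATAA 31 to 27 bases before the start, and in Prtn3 they lay at 94 to 88, 55 to 51 and 32 to 28 bases. The neighbouring pair thus carried the same 3 motifs in the same order, all on the gene's strand. The motifs were chosen with the genes known, and a match is a description of letters and not of binding.

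Most genes beside the members were low or not found. Plppr3, between the Prss57 side of the locus and Prtn3, was at 21.8 CPM in the progenitor-like cells, against 6061 CPM for Prtn3 and 18469 CPM for Elane in the same cells of both libraries. Cfd, which follows Elane and encodes complement factor D, had 3 UMIs in all cells. Lpo beside Mpo, and Gzme and Gzmd beside Ctsg, had 0 UMIs, as had Lim2 and Cldnd2 on either side of Nkg7, while Mcpt8, a basophil protease gene beside Ctsg, was at 28.7 CPM. Etfb, a mitochondrial flavoprotein gene next after Cldnd2, was at 688 CPM.

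The next stage was the cycling specific-granule-stage neutrophil-like cells, 267 in each library, which had high Camp, Ngp and Ltf, the transcripts of specific granule proteins, together with cell cycle genes. The members summed to 2304 CPM in control and 2392 CPM in OTM, against 32089 and 43506 in the progenitor-like cells, and this stage held 19.3% and 31.8% of the members' UMIs. Elane was at 1309 CPM in both libraries, and Prtn3 at 446 and 531. Mpo was at 186 and 264 CPM, Nkg7 at 236 and 155, Ctsg at 63.6 and 88.0, and Prss57 at 63.2 and 45.0. The stage was not uniform, since its median cell gave 0.0198% of its UMIs to the members in control and 0.0169% in OTM and its highest cell 4.66% and 3.34%. The level left in this stage, as a percentage of that in the progenitor-like cells of both libraries, was 2.12% for Ctsg, 4.04% for Mpo, 7.09% for Elane, 8.20% for Prtn3, 10.4% for Nkg7 and 16.8% for Prss57. Ctsg was the lowest and Prss57 the highest of the 6 in each library by this measure, with progenitor over cycling ratios of 56.3 (48.0 to 66.5) and 44.4 (39.4 to 50.2) for Ctsg and of 4.57 (3.68 to 5.67) and 7.87 (6.21 to 9.97) for Prss57. Elane and Prtn3 changed places in the order between the libraries.

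In the noncycling specific-granule-stage cells, 264 in control and 138 in OTM, the members summed to 78.9 and 61.5 CPM, which left 88 and 61 UMIs in all. Elane was at 27.8 CPM in control and 16.1 in OTM, Prtn3 at 23.3 and 21.2, and Ctsg at 3.59 and 7.06. All 6 members were over 10-fold higher in the progenitor-like than in these cells of both libraries together, as were 546 of the 3643 genes that could be compared, 15.0%. The members are genes known for this stage, so the count is a description of the class. The mature neutrophil-like cells, 502 in control and 561 in OTM, had a sum of 90.5 (75.1 to 108) and 58.2 (48.9 to 68.9) CPM. An interferon-response cluster with mature neutrophil markers, 134 control and 4 OTM cells, was kept apart from this class. Most control cells of the class lay in cluster 1 (464) and most OTM cells in cluster 3 (486). The noncycling stage over mature ratio was 0.872 (0.655 to 1.16) in control and 1.06 (0.768 to 1.44) in OTM, and both intervals include 1.

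A level of this size was also found in classes named outside the neutrophil line. In the C1q and MHC class II cluster Elane stood at 25.04 (17.0 to 35.6) CPM in control and 33.7 (16.8 to 60.3) in OTM, and in the nonclassical monocyte-like cells at 37.5 and 22.2. The nonclassical class also held neutrophil RNA, with specific granule transcripts at 3.28% and 5.11% of its UMIs. Thinned to 1700 UMIs, 7.13% of control and 4.17% of OTM mature neutrophil-like cells had an Elane UMI, against 4.13% and 4.67% of cells in the C1q and MHC class II cluster. By level, Elane in mature neutrophil-like cells was at 39.6 CPM in control and 24.0 in OTM, above the C1q and MHC class II cluster in control and below it in OTM. In mature neutrophil-like cluster 1 Elane was at 39.3 CPM in control and 38.2 in OTM, from 48 and 10 UMIs. In cluster 3 it was at 42.6 and 22.2, from 5 and 46 UMIs. Free RNA can give UMIs in cells that do not express a gene, and its part in these low levels was not tested. The unthinned shares were 10.4% and 9.27% at median depths of 2414.5 UMIs (the larger control cluster) and 3752.5 (the larger OTM cluster), against 29 of 242 and 8 of 40 cells at 4357.5 and 7077.

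**Figure D2:**
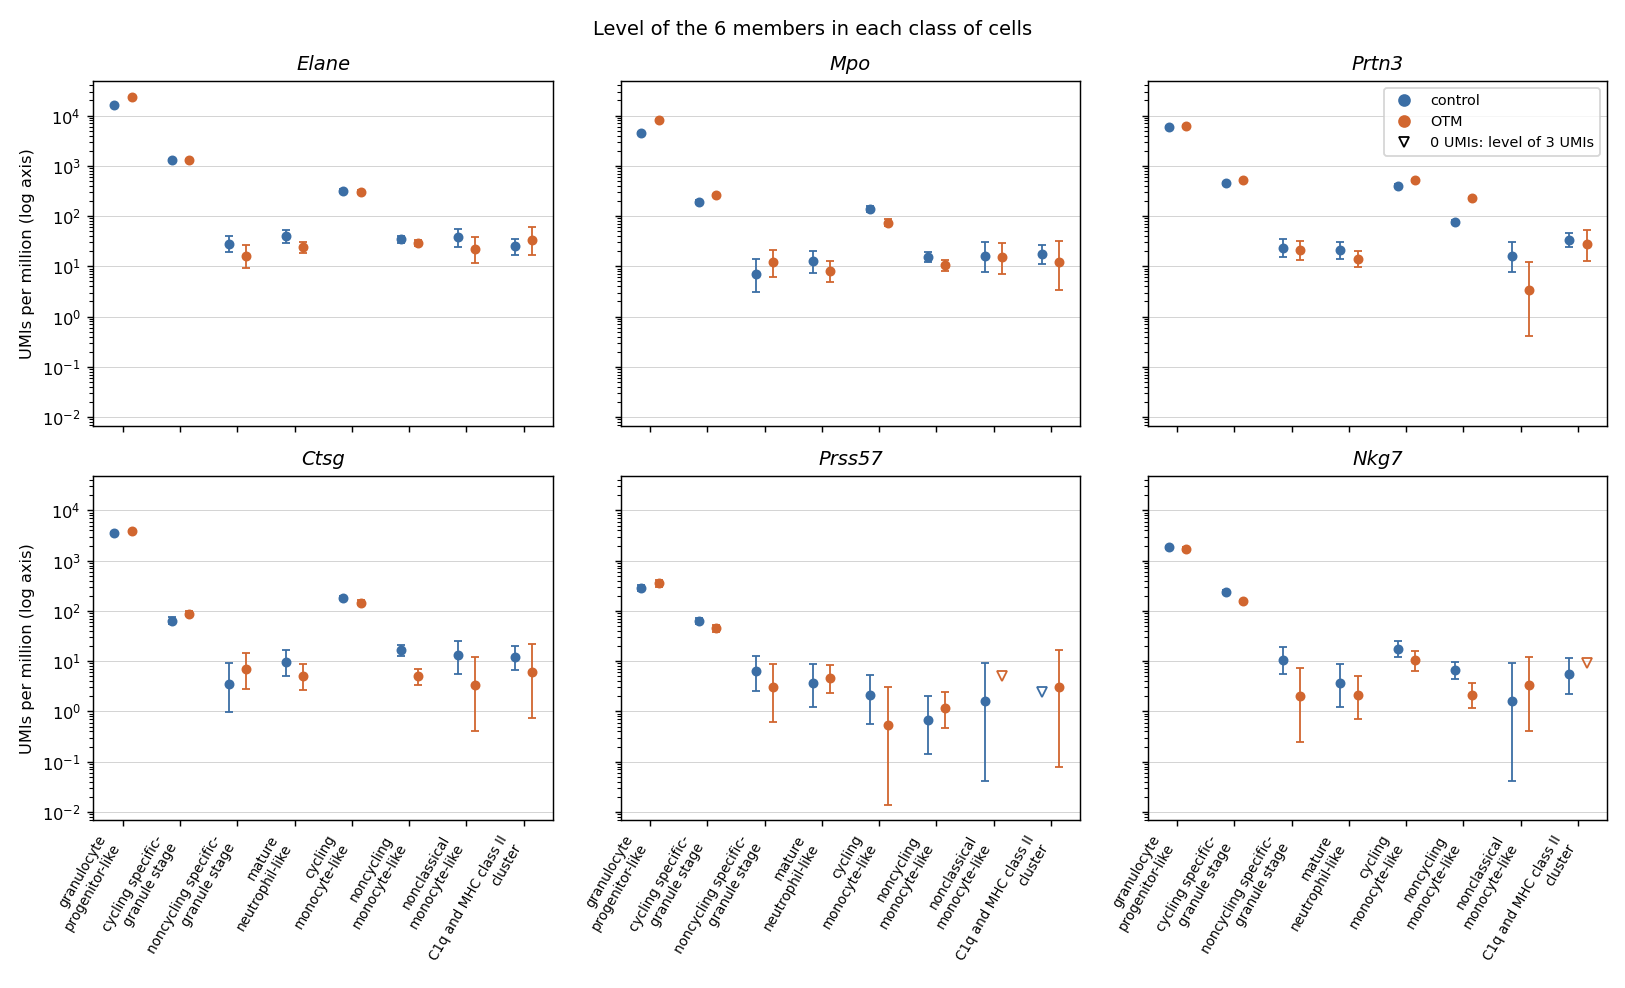
CPM (log axis) of each member in 8 classes of cells, control and OTM; points are the pooled level of a class in 1 library, bars its exact 95% Poisson interval, and open triangles mark the level of 3 UMIs where none was found. Among these classes all 6 are highest in the progenitor-like cells, and Prtn3 alone stands clear of the late-class level in noncycling monocyte-like cells, at 76.7 in control and 231 in OTM.

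Within the progenitor-like and specific-granule-stage cells, the members were followed by the share of a cell's UMIs taken by specific granule transcripts. This was not the planned axis, and its bin edges were chosen after the values were seen. By the third bin Ctsg had kept the smallest part of its first level of all 6 members in both libraries. In OTM, Ctsg went from 5246 CPM in the 10 cells with under 0.5% of such UMIs to 1997 CPM in the 7 cells with 2 to 4%, while Elane went from 25642 to 20243. In control, Ctsg went from 3690 CPM in 39 cells to 715 CPM in 4 cells over the same bins, while Elane was at 15006 and 17602. Past 10%, where 475 control and 369 OTM cells lay, Ctsg was at 13.01 and 18.6 CPM and Elane at 344 and 314. Ctsg's part of the members' UMIs was 11.9% in the lowest control bin and 1.93% in the highest, while that of Nkg7 was 5.74% and 16.4% and that of Prss57 0.848% and 5.04%. In OTM, from the lowest to the highest bin, the part of Ctsg was 10.6% and 2.75%, that of Nkg7 4.19% and 11.9%, and that of Prss57 0.826% and 3.50%. Mpo's part was 14.2% and 4.63% in control and 17.4% and 6.97% in OTM, and that of Prtn3 was 18.6% and 20.9% in control and 15.01% and 28.5% in OTM. The parts of Ctsg and Mpo were thus lower, and those of Nkg7, Prss57 and Prtn3 higher, in the highest than in the lowest bin of both libraries, with the wider change of Prtn3 in OTM. The 5 middle bins held 4 to 27 cells each, so single cells weigh on them, and the Ctsg value at 6 to 8% in control rests on 4 UMIs. The planned axis, late maturation markers as a share of late and middle ones, also took in mature neutrophil-like cells and gave another order. There the members summed to 1772 CPM at 0 to 2%, 13346 at 20 to 40% and 1623 past 40% in control. In OTM these sums were 2930, 8794 and 664 CPM. From the lowest to the highest bin, Ctsg's part was 2.32% and 15.6% in control and 3.19% and 15.2% in OTM.

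**Figure D3:**
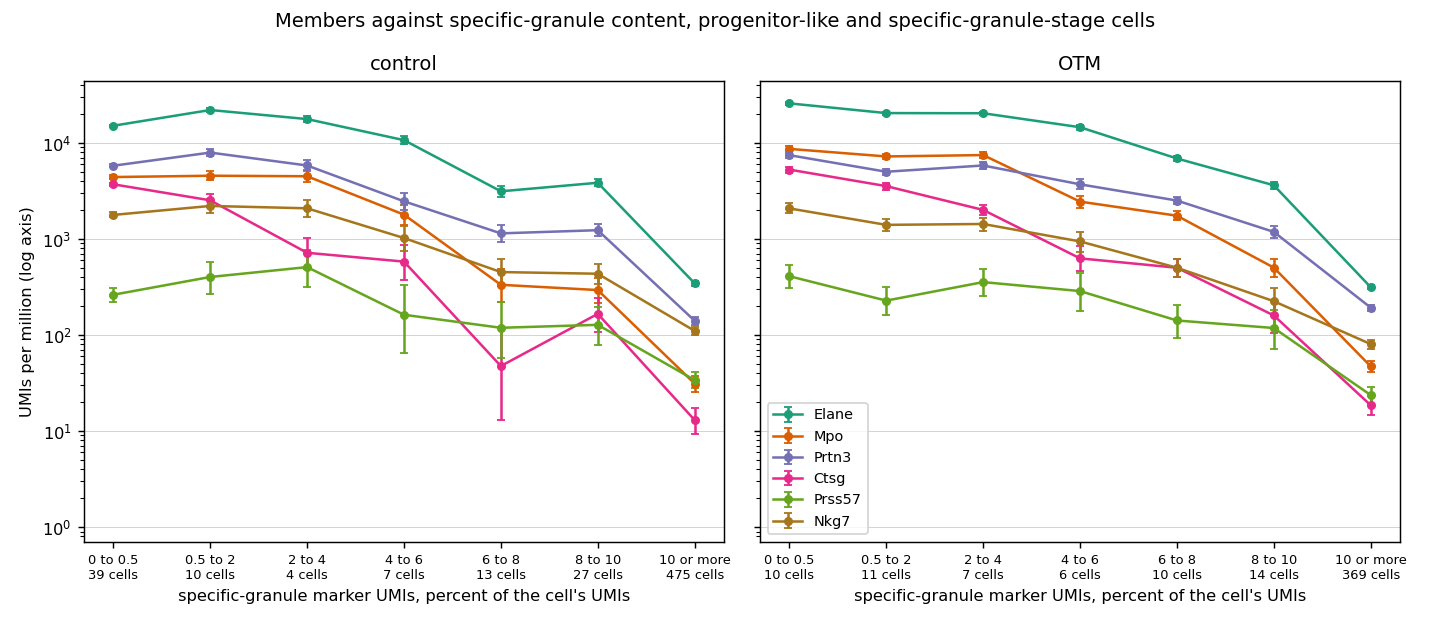
CPM (log axis) of each member in progenitor-like and specific-granule-stage cells, binned by the percent of a cell's UMIs that come from specific granule markers, with the number of cells under each bin and exact 95% Poisson bars. Ctsg in OTM goes from 5246 to 18.6 from the first bin to the last, and Elane from 25642 to 314.

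Genes that work with the members were taken from 5 lists and compared between the progenitor-like and the noncycling specific-granule-stage cells of both libraries. Of the other azurophil and lysosomal contents with at least 10 UMIs, 4 of 8 were higher in the progenitor-like cells and 3 were lower, where higher or lower means that the interval of the ratio excluded 1. By the same measure 43.1% of all 11821 genes with as many UMIs were higher and 8.35% were lower, with a median ratio of 2.92. Lyz2, lysozyme, was lower, at 1026 CPM against 15941. For genes of protease processing and storage, 6 of 8 were higher and 1 was lower. These include Srgn, the serglycin core protein that holds proteases in the granule, with a ratio of 1.80 (1.72 to 1.88), Ctsc, the dipeptidase that activates the granule serine proteases, with 4.77 (3.28 to 7.02), and Calr, a chaperone that binds nascent myeloperoxidase, with 18.3 (15.0 to 22.6). Of the inhibitors, 3 of 7 were higher and 3 lower: Serpinb1a, an inhibitor of all 3 classical proteases, had a ratio of 1.68 (1.55 to 1.82), Cst7, cystatin F, had 218 (73.8 to 1061) with 3 UMIs in the later cells, and Wfdc21 had a ratio of 0.114 (0.107 to 0.121). Of the transcriptional regulators 7 of 9 were higher and 0 were lower, with Myb at 14.5 (9.03 to 24.5), Irf8 at 17.7 (8.50 to 42.7), Cebpa at 12.9 (4.98 to 42.6) and Gfi1, the repressor needed for granulocyte commitment, at 22.9 (3.33 to 987) with 1 UMI in the later cells. Some of these levels differed between the libraries in the progenitor-like cells. Irf8 was at 97.7 CPM in control and 11.3 in OTM there, and Serpinb1a at 612 and 1959, against 646 in the later cells of both libraries. All 10 specific and gelatinase granule genes were lower, with a median ratio of 0.0320, as the classes were named by such genes. The lists were chosen with earlier results known, and their counts of higher genes are to be read against the 43.1% of all genes, since a higher level in the progenitor-like cells was common.

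Across 23 profiles (classes in each library), the gene most like the members summed was Ms4a3, with Pearson's r of 0.95 on log2(CPM + 10). Ms4a3 was used to take the progenitor-like cells, so its place is partly set by the class. It was followed by Ttc3, Fcho1, Gpr160 and Atad5, at r of 0.94 to 0.95, and among the 10 nearest were Mybl2, Mcm2 and Hells, genes of DNA replication and the cell cycle. For single members, Cst7 came among the 3 nearest to Mpo (r = 0.95) and Myb was nearest to Prss57 (r = 0.94). Among the members themselves r ran from 0.78 (Prtn3 and Prss57) to 0.98 (Elane and Mpo). These profiles share libraries and many cells of low level, and the list changed with the settings: 2 of the 10 genes were also found with log2(CPM + 1) and 0 of the 10 with Spearman's rho.

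In monocyte-like cells Prtn3 was set apart from the other members. In the noncycling monocyte-like cells, 975 in control and 782 in OTM, Prtn3 was at 76.7 (68.8 to 85.4) CPM in control and 231 (219 to 244) in OTM, from 336 and 1398 UMIs. In the same cells Elane was at 35.0 and 29.0 CPM, Mpo at 15.5 and 10.6, Ctsg at 16.4 and 4.97, Nkg7 at 6.62 and 2.15, and Prss57 at 0.685 and 1.16. Compared with the mature neutrophil-like cells, Prtn3 was 3.67 times (2.49 to 5.60) as high in control and 16.4 times (11.6 to 23.9) in OTM, whereas Elane had ratios of 0.882 (0.641 to 1.23) and 1.21 (0.890 to 1.66). Thinned to 1700 UMIs, 10.4% of control and 27.5% of OTM monocyte-like cells had a Prtn3 UMI, against 3.64% and 2.22% of mature neutrophil-like cells. The unthinned shares in monocyte-like cells were 24.6% and 58.6%.

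The number of Prtn3 UMIs per Elane UMI differed between classes. It was 0.380 (0.367 to 0.395) in control and 0.262 (0.2501 to 0.275) in OTM progenitor-like cells, and 0.341 and 0.405 in the cycling specific-granule stage. In the noncycling monocyte-like cells it was 2.20 (1.81 to 2.68) and 7.99 (6.82 to 9.40). In the larger mature neutrophil-like cluster of each library it was 0.542 (0.323 to 0.891) and 0.609 (0.366 to 0.995), and in the C1q and MHC class II cluster 1.35 (0.832 to 2.23) and 0.818 (0.2997 to 2.17). In control the intervals of this cluster and of the monocyte-like cells overlap, and the part of free RNA in the monocyte-like values was not tested. In the nonclassical monocyte-like cells, which are a later monocyte state, it was 0.435 (0.185 to 0.9497) and 0.154 (0.0169 to 0.680), from 10 and 2 Prtn3 UMIs. That class was rich in neutrophil RNA, with mature neutrophil markers at 20192 CPM and specific granule transcripts at 3.28% of UMIs in control and 5.11% in OTM. The part of this RNA in its Prtn3 per Elane was not tested. Leaving out monocyte-like cells with any Ms4a3 UMI gave 76.7 CPM of Prtn3 in control and 223 in OTM, and leaving out the tenth of cells richest in specific granule UMIs gave 77.7 and 241, so the level was about as high without them.

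Different clusters held most of the monocyte-like cells in each library, and Prtn3 differed among them. Cluster 0, led by S100a4, Ear1 and Fn1, held 699 control but only 19 OTM cells and had 71.7 CPM of Prtn3 in control. Cluster 6, led by Saa3, the acute-phase serum amyloid gene, held 371 OTM cells and no control cell, and had the highest Prtn3 level at 347 CPM, with 10.5 (8.47 to 13.1) Prtn3 UMIs per Elane UMI and a Prtn3 UMI in 74.7% of its cells. Specific granule transcripts took 2.62% of its UMIs, against 0.424% in control cluster 0, and over all noncycling monocyte-like cells they took 0.964% in control and 2.29% in OTM, and their part in the Prtn3 level was tested only by leaving out the tenth of cells richest in them. No cell of cluster 6 had more than 20 Prtn3 UMIs, and the tenth of cells with the most held 35.3% of them, so the level was spread over the cluster. Cluster 4, led by interferon-linked genes such as Irf7 and Ifi204, held many cells of both libraries, with Prtn3 at 99.2 CPM in 196 control cells and 138 CPM in 300 OTM cells, a ratio of 1.39 (1.11 to 1.74). In cluster 10, led by Ccl3, Ccl4 and Cxcl2 and also rich in specific granule RNA, Prtn3 was at 56.1 CPM in 80 control and 109 CPM in 92 OTM cells, a ratio of 1.94 (1.28 to 3.01). Over all noncycling monocyte-like cells the ratio of OTM to control was 3.02 (2.68 to 3.41), and the cells that make it up differ between the libraries as given here.

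**Figure D4:**
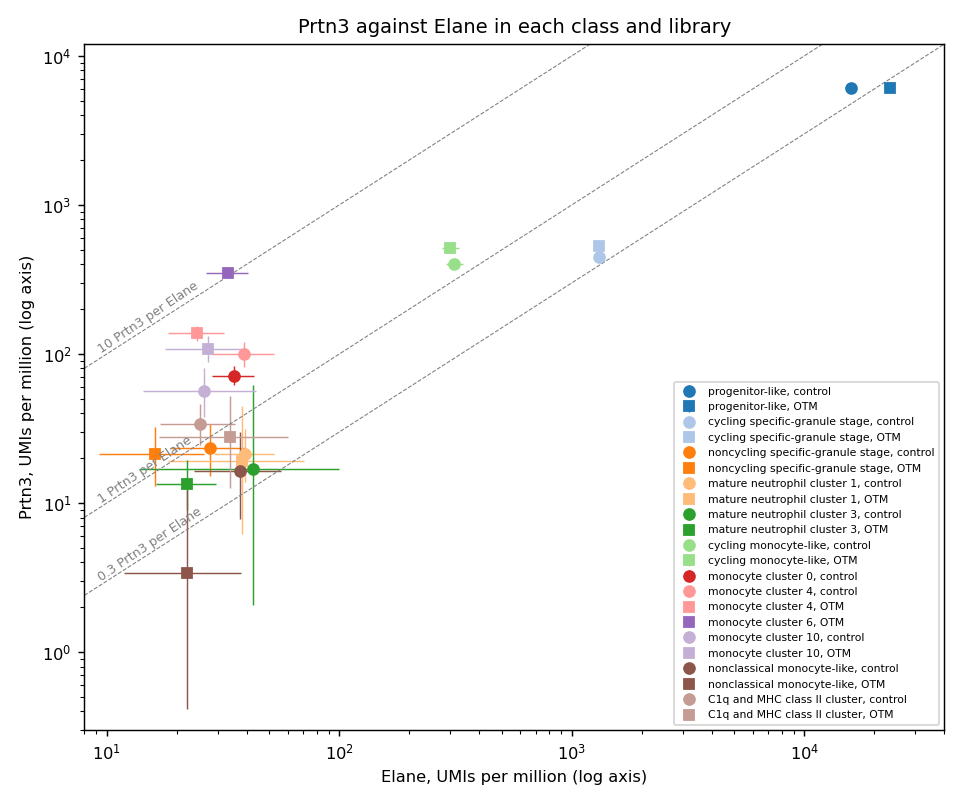
Prtn3 against Elane, both in CPM on log axes, in each class or cluster of each library (circles control, squares OTM) with exact 95% Poisson bars and dashed lines of equal Prtn3 per Elane. The progenitor-like and cycling specific-granule-stage points lie near 0.3 Prtn3 per Elane, and monocyte cluster 6 of OTM lies near 10.

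The cycling monocyte-like cells, 203 in control and 129 in OTM, held 6.68% and 6.66% of the members' UMIs and had another make-up again. Prtn3 was at 398 CPM in control and 510 in OTM, Elane at 313 and 300, Ctsg at 182 and 146, and Mpo at 138 and 74.4. Nkg7 was at 17.7 and 10.4 CPM and Prss57 at 2.08 and 0.547, from 4 and 1 UMIs. In the cycling specific-granule stage Prtn3 was near these levels, at 446 and 531 CPM, whereas Elane was at 1309 in both libraries, Nkg7 at 236 and 155, and Prss57 at 63.2 and 45.0, all above the cycling monocyte-like cells, and Ctsg at 63.6 and 88.0 lay below them. Ctsg per Elane was 0.583 (0.510 to 0.667) in control and 0.485 (0.418 to 0.563) in OTM cycling monocyte-like cells, 0.0486 (0.0412 to 0.0569) and 0.0672 (0.05999 to 0.0751) in the cycling specific-granule stage, and 0.225 and 0.168 in the progenitor-like cells. A few progenitor-marked cells weighed on this class, as 5 control and 14 OTM cells with at least 3 Ms4a3 UMIs held 41.2% and 46.1% of its members' UMIs. Without them Prtn3 was at 291 and 387 CPM, Ctsg at 139 and 75.03, Elane at 153 and 167 and Mpo at 45.1 and 32.6.

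Nkg7 was also high outside the myeloid cells. In 9 control cells of the mixed cluster that carried T or NK cell markers, Nkg7 was at 2423 CPM and was found in all 9 cells with 5 to 63 UMIs each, while the other 5 members had 5 UMIs in all. Of the 3 such cells in OTM, 1 had Nkg7, with 14 UMIs, and 1 held 147 of the 148 UMIs of the other members. These 9 control cells gave 190 of the 2102 Nkg7 UMIs of the library, against 1209 from the progenitor-like cells.

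Between OTM and control the members as a group were lower in the whole library and their ratios differed by class. Over all cells the members summed to 2083 CPM in control and 1735 CPM in OTM, a ratio of 0.833 (0.819 to 0.846). Ctsg with 0.610 (0.576 to 0.645) and Nkg7 with 0.531 (0.495 to 0.570) were past 1.5-fold, 2 of 6 members, beside 2164 of all 9409 genes compared (23.0%). The median log2 ratio of those genes was -0.20 and that of the members summed -0.26, so the sum lay close to the median gene. Prss57 had a ratio of 0.760 (0.652 to 0.884), which went past 1.5-fold, to 0.4561 (0.322 to 0.6361), with the stricter reading of the gene filter (200 genes per 1000 UMIs). Elane had a ratio of 0.846 (0.827 to 0.866), Prtn3 0.926 (0.894 to 0.958) and Mpo 0.975 (0.933 to 1.02). The direction of Prtn3 flipped to 1.08 with TMM scaling, which centres the genes, to 1.07 with the stricter reading of the gene filter and to 1.05 without the deepest 1% of cells, while the sum stayed under 1 (0.974, 0.783 and 0.9001). Of the summed level, the progenitor-like cells gave 1450 of 2083 CPM in control and 938 of 1735 CPM in OTM.

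Within the progenitor-like cells Mpo had a ratio of OTM to control of 1.84 (1.75 to 1.94), Elane 1.46 (1.42 to 1.51), Prss57 1.23 (0.973 to 1.55), Ctsg 1.09 (1.02 to 1.17), Prtn3 1.01 (0.957 to 1.06) and Nkg7 0.935 (0.847 to 1.03). Past 1.5-fold there was 1 of 6 members, Mpo, beside 562 of 2158 genes (26.0%), so the members were no more often past it than other genes. Genes of the stage moved further than most members in the same cells. Ngp had a ratio of OTM to control of 8.17 (7.43 to 8.999) and Camp 3.84 (3.50 to 4.21), both of specific granules, while Irf8, a regulator of the monocyte line, had 0.115 (0.0305 to 0.310) and Klf4 was at 29.0 CPM in control and at 0 UMIs in OTM. The cells compared thus differed in these markers between the libraries, and Cebpe had a ratio of 1.83 (1.38 to 2.42). Myb, at 0.798 (0.542 to 1.16), and Gfi1, at 1.54 (0.371 to 6.04), had intervals that include 1. Whether the cells differed in stage or in lineage, and the part of this in the members' ratios, was not tested. More OTM than control progenitor-like cells carried Fcnb, 20 of 22 against 27 of 44. In the Fcnb-bearing cells alone Elane was at 22677 CPM in control and 23428 in OTM, Mpo at 5269 and 8307, Prtn3 at 7910 and 6088, Ctsg at 4324 and 3937, and Nkg7 at 2580 and 1718. Of the 5, Mpo stood higher in OTM by the widest margin there, and Elane was nearly level. The progenitor-like and cycling specific-granule-stage cells joined, 311 in control and 289 in OTM, gave ratios of 0.740 for Elane, 0.888 for Mpo, 0.631 for Prtn3, 0.527 for Ctsg, 0.653 for Prss57 and 0.511 for Nkg7, all under 1. Past 1.5-fold there were 4 of 6 members, beside 1381 of 5925 genes (23.3%). The median log2 ratio of those genes was -0.12, against -0.51 for the members summed. With the classes apart, the members summed had ratios of 1.36 (1.33 to 1.38) and 1.04 (1.004 to 1.07), with Prss57 at 0.713 and Nkg7 at 0.658 in the cycling stage. The progenitor-like cells held 4.52% of control and 2.16% of OTM UMIs. The joined ratios thus carry this share as well as the levels within each class. Mpo had the highest ratio of the 6 in the progenitor-like class and in the joined class. Per Elane UMI, Mpo was 0.280 (0.268 to 0.292) in control and 0.353 (0.338 to 0.368) in OTM progenitor-like cells, and 0.142 (0.129 to 0.157) and 0.202 (0.188 to 0.216) in the cycling specific-granule stage. With 1 library each, force and library cannot be told apart.

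**Figure D5:**
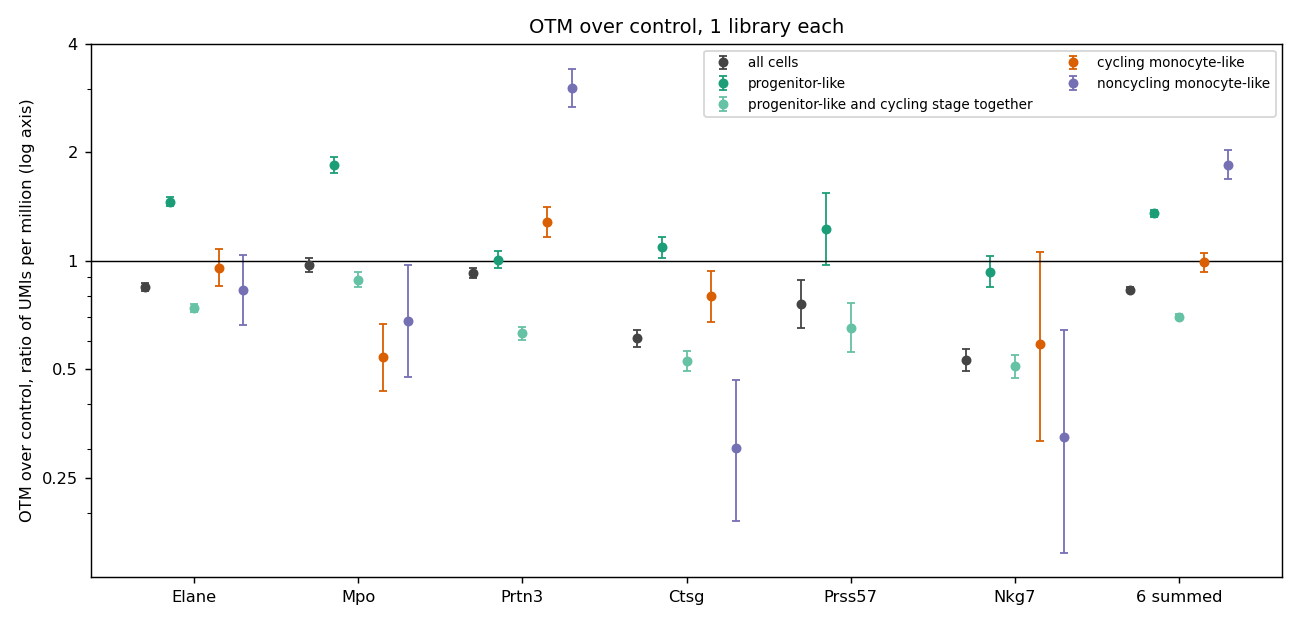
Ratio of OTM to control CPM (log axis, line at 1) for each member and the 6 summed, in 5 sets of cells, with exact 95% intervals for counting error in 1 library per condition; values from fewer than 20 UMIs in both libraries together are not drawn. Prtn3 in noncycling monocyte-like cells is at 3.02 and Mpo in progenitor-like cells at 1.84, while every member is below 1 when progenitor-like and cycling specific-granule-stage cells are joined. In the joined set, progenitor-like cells gave a smaller share of the UMIs in OTM than in control, and the median log2 ratio of all genes compared was -0.12.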

How the data were processed

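Droplet-based 3′ libraries were processed by the authors with Cell Ranger 3.0.0 on the mm10 reference. The deposited values are counts of UMIs for each gene in each cell barcode, not normalized, in 1 table for control and 1 for OTM, from which the authors went on in Seurat 3.0.0. The annotation release is not given in the sources used here. The members and gene lists were chosen with earlier results of these data known. For both libraries the number of cells in the study's text is higher than the number of barcodes in the table, 2863 in control and 2058 in OTM.

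Barcodes with at least 200 genes and at most 5% mitochondrial UMIs were kept. A literal reading of the study's filter, 200 genes per 1000 UMIs, kept 2444 control and 1255 OTM barcodes and removed 52.3% and 71.4% of the members' UMIs, so it was an alternative. Both libraries were clustered jointly with Seurat 5.3.0 in R 4.3.3 (scaled to 10000 UMIs per cell, 1994 variable genes without the members, 20 components, 20 neighbours, resolution 1.0, seed 42), which gave 14 clusters. A cluster was named by the marker list with the highest mean z-score among levels over clusters, with at least 3 markers found. Cluster 12 was split cell by cell. Scanpy 1.11.5 ran the doublet caller Scrublet, which marked 166 OTM cells (8.09%, 2 of them progenitor-like) and 0 control cells, so it did not work on control, and no doublet was removed from the main values.

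UMIs were summed per class and library and given as CPM, with exact Poisson, binomial and conditional binomial intervals (SciPy 1.17.1). Ratios of OTM to control over all genes used genes with at least 50 UMIs over both groups compared, with 0.5 UMIs added to each for the count of genes past a fold. Shares of cells were thinned to 1700 UMIs analytically, below which no kept cell lay. The likeness list took the 10 genes of highest Pearson's r over 23 profiles among 8067 genes. Promoters and gene positions came from RefSeq tables of GRCm38.p6, the assembly behind mm10. The calculations were tested on simulated data. Alternatives changed the filter, the denominator, the scaling, doublets, the deepest cells, the clustering and the class border.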

Additional observations from a re-analysis of the deposited data

Results flagged for a closer look

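The ratio of OTM to control for Mpo lay above 1 in the progenitor-like and cycling specific-granule-stage cells and below 1 in the noncycling and cycling monocyte-like cells. It was 1.84 in the progenitor-like cells (4446 CPM in control, 8194 in OTM) and 1.42 (1.27 to 1.58) in the cycling specific-granule stage, against 0.682 (0.477 to 0.974) in the noncycling monocyte-like cells (15.5 and 10.6 CPM) and 0.541 (0.436 to 0.667) in the cycling monocyte-like cells (138 and 74.4 CPM). The last value leans on 5 control and 14 OTM cells with at least 3 Ms4a3 UMIs, which held 68.6% and 63.2% of the Mpo UMIs of that class, and without them Mpo was at 45.1 and 32.6 CPM, a ratio of 0.723 (0.499 to 1.04) whose interval includes 1. In the noncycling monocyte-like cells without any Ms4a3 UMI, Mpo was at 13.6 CPM in control and 10.4 in OTM, from 57 UMIs in each. Ctsg was at 12.4 and 4.73 CPM there. No interval was taken for these. In control cluster 10, leaving out such cells took Mpo from 11 to 3 UMIs and Ctsg from 20 to 5. In the mature neutrophil-like cells, also granulocytic, Mpo was at 12.7 and 8.14 CPM, a ratio of 0.640 (0.315 to 1.31). For Ctsg the ratios were 1.09 and 1.38 (1.14 to 1.68) in the progenitor-like and cycling specific-granule-stage cells, against 0.302 (0.190 to 0.468) and 0.798 (0.678 to 0.938) in the noncycling and cycling monocyte-like cells, the last being 0.539 (0.429 to 0.675) without those 5 and 14 cells. In the Fcnb-bearing progenitor-like cells alone the ratio was under 1 for Ctsg, at 0.911 (0.846 to 0.980), and 1.58 (1.49 to 1.67) for Mpo. With the progenitor-like and cycling specific-granule-stage cells joined, Ctsg was at 0.527 and Mpo at 0.888. With 1 library per condition, these differences between classes were not tested. Beside them, Ctsg also had lower values in OTM in the mature neutrophil-like cells, with 9.72 CPM in control and 5.14 in OTM, a ratio of 0.529 (0.221 to 1.26), and in the nonclassical monocyte-like cells, with 13.1 and 3.41. The progenitor-like ratios of Mpo and Elane turned under 1 in 2 of 16 alternatives. These were each library clustered alone, and the addition of cells of any cluster with 10 or more Ms4a3 UMIs.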

How the results depend on the processing

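Summed over the members, the ratio of OTM to control over all cells stayed under 1 in all 7 alternatives: 0.7825 with 200 genes per 1000 UMIs, 0.8028 without haemoglobin, ribosomal protein and mitochondrial genes in the denominator, 0.8468 without doublets, 0.9001 without the deepest 1% of cells and 0.9737 with TMM scaling. For Prtn3 it turned to 1.072, 1.052 and 1.083 with the first, the fourth and the fifth of these.

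The share of the members' UMIs in progenitor-like cells (69.6% in control, 54.1% in OTM) was 0.1875% in control with 200 genes per 1000 UMIs, 52.23% in OTM without a barcode filter, 64.93% and 49.31% without the deepest cells, 52.24% in OTM at resolution 1.5, 70.72% and 52.27% with 10 components, 68.92% and 48.24% with 30, 31.3% and 75.64% with each library clustered alone, and 79.31% and 67.87% with single cells classed by marker levels. The progenitor-like over specific-granule-stage ratio (19.8 and 22.8, both stages joined) was, in the same order, 0.3703 in control, 22.11 and 25.37, 23.45 and 24.3, 21.15 in OTM, no moved value with 10 components, 20.85 and 20.03, 5.637 and 42.44, and 30.22 and 25.41, with 28.6 and 29.96 for the smaller denominator and 24.07 in OTM without doublets. With 200 genes per 1000 UMIs the cells were clustered anew, and the cells named progenitor-like in control had 2 Prtn3 UMIs per Elane UMI (0.1041 to 118). No OTM cell was named progenitor-like there, so OTM has no share or ratio for that setting. With the main classes kept, added after seeing the data, the 23 control and 11 OTM progenitor-like cells that passed held 65.4% and 58.8% of the members' UMIs. The monocyte-like over mature neutrophil-like ratio of the sum (1.67 and 4.796) was 3.865 in OTM with 200 genes per 1000 UMIs and 2.139 and 5.899 with the smaller denominator. It reversed to 0.1221 and 0.6948 with each library clustered alone, where 5 control and 1 OTM progenitor-like cells fell in the cluster named mature and held 2077 of its 3099 and 683 of its 1999 members' UMIs. That clustering also turned Elane and Mpo of the progenitor-like cells to OTM over control ratios of 0.6972 and 0.5555.

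Chosen after seeing the data, a border of 1 Ms4a3 UMI gave a ratio of 19.17 in control, and one of 5 UMIs gave 20.68 and a share of 67.5%. Adding cells of any cluster with 10 or more Ms4a3 UMIs gave shares of 81.29% and 79.01%, ratios of 32.61 and 32.77, and OTM over control ratios of 0.7613 for Elane and 0.8771 for Mpo. Prtn3 in monocyte-like cells kept its direction in 17 alternatives (2.63 to 3.31). Of the 10 genes most like the members, 2 stayed with log2(CPM + 1), 0 with Spearman's rho and 6 with joint clusters. No paired analysis was possible because each condition had 1 library. Depth limits the late classes, where a member often rests on under 20 UMIs.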
